A study of Mus musculus with 9 samples.

Results

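DNA replication and S phase genes were followed in 3 kinds of cultured mouse macrophage, as a set of 35 genes chosen by symbol for their known roles: the Mcm helicase subunits and the factors that load and start them, the polymerases and clamp proteins of the fork, the enzymes of deoxynucleotide supply, the E cyclins and E2F activators of S phase entry, and Uhrf1 and Chaf1b, which act on newly copied chromatin. All 35 were found among the 46078 genes of the deposited tables, and all 35 passed the filter for testing (3 or more libraries at an FPKM of 1 or above), as did 11952 genes in all. RNA was sequenced from 9 libraries, 3 per group, of C57BL/6J cells kept in culture for at least 8 weeks. FLM_G were fetal liver macrophages (liver of gestational day 15 to 19) grown with 30 ng/ml of recombinant mouse GM-CSF and 10% fetal bovine serum. FLM_M were fetal liver macrophages of the same gestational days grown with 20% serum and, to supply M-CSF, 30% supernatant of L cells. BMM were bone marrow macrophages, whose medium the labels do not describe. Cells were plated at 250000 per well in triplicate a day before harvest, so the 3 libraries of a group are not stated to be separate cultures, and the spread that p-values are set against is that of these libraries alone and may be technical. Between FLM_G and FLM_M the growth factor and the serum differ together and cannot be told apart. Against BMM the tissue of origin differs, and so may the medium and the age of the animals. These cannot be told apart either.

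A chromosome is copied from origins. In the phase before S, the origin recognition complex, Cdc6 and Cdt1 load the ring-shaped MCM helicase on DNA, and at the start of S phase Cdc45 and the GINS complex join it and the DNA is unwound. DNA polymerase alpha with primase lays down primers, polymerases delta and epsilon extend them behind the sliding clamp PCNA, and replication factor C loads the clamp. Transcription of many of these genes is held down by the retinoblastoma family and switched on by E2F factors when growth factor signalling, through the D cyclins, inactivates that family. M-CSF and GM-CSF are both growth factors of the macrophage lineage.

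E2F factors are known from textbooks to bind short promoter sites of a shared form, so the letters of such sites in the members' promoters are shown first. The windows run from 250 bases before to 50 bases after the RefSeq transcript start (GRCm38.p6), and the 5′ to 3′ strand is that of the gene. The letters searched were TTTCCCGC, TTTCGCGC, TTTGCCGC and TTTGGCGC on both strands, where matches on opposite strands can share bases; the motifs were chosen with the expression results known. A window was found for 30 of the 35 members, and 13 of these 30 (43.3%) held at least 1 match. The letters stood in 398 of the 8198 tested genes with a window (4.85%). The 5 members with at least 2 matches were Mcm3, Mcm5, Mcm6, Mcm7 and Rfc3, and they are printed with E2f2, which is itself an E2F factor and has 1 match; capitals mark the matches.
Mcm3, chr1:20820263-20820562, minus strand: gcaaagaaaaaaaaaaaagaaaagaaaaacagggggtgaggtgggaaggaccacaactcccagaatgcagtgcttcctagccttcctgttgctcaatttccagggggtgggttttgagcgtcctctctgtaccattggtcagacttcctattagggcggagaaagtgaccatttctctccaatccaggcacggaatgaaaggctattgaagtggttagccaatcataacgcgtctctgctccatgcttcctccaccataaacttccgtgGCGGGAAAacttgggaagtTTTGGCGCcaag
Mcm5, chr8:75109259-75109558, plus strand: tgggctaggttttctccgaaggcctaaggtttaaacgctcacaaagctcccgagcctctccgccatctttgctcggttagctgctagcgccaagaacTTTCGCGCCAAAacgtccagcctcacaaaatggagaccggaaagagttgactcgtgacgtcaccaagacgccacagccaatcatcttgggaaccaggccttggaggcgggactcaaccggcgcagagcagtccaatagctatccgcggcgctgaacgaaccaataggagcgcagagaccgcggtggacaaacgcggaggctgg
Mcm6, chr1:128359656-128359955, minus strand: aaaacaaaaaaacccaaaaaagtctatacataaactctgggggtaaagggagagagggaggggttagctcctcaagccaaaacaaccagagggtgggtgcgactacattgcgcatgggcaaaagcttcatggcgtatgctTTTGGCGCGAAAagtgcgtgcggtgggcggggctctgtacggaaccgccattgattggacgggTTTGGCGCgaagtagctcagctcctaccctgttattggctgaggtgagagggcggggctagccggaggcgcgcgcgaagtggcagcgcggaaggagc
Mcm7, chr5:138171834-138172133, minus strand: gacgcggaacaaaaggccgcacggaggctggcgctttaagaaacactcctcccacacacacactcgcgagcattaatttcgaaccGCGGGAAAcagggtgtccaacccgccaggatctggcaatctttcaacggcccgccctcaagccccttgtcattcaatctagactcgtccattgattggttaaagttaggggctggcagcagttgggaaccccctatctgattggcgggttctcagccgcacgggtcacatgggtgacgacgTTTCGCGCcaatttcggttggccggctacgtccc
Rfc3, chr5:151651159-151651458, minus strand: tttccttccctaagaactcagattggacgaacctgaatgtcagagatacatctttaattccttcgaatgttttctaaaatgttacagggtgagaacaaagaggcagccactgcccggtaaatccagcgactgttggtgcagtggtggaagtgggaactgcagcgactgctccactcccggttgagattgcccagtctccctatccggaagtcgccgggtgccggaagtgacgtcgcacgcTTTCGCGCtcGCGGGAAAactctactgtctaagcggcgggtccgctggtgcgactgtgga
E2f2, chr4:136172024-136172323, plus strand: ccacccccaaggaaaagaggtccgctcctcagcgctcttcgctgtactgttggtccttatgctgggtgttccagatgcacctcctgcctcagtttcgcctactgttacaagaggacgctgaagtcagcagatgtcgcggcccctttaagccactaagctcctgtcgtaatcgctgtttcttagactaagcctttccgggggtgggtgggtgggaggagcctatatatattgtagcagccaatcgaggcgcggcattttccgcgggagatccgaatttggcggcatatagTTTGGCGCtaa

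In Mcm6 the 3 matches began 110, 106 and 47 bases before the start, and the first pair share bases because they lie on opposite strands. The overlapping pair of Mcm5 began 153 and 149 bases before the start. In Mcm7 a match began 165 bases before the start and another lay in the transcribed bases, and in Rfc3 a match began 10 bases before the start and the next at the start itself. Both matches of Mcm3 and the match of E2f2 lay after the start. The other members with a match were Cdc6, Cdt1, Lig1, Orc1, Pola1, Pold1 and Uhrf1, with 1 each. These are matches of letters in a window, which do not show that a factor binds there.

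For comparison, the same letters stood in 12 of 49 other replication genes with a window (24.5%) and in 1 of 23 mitosis genes (4.35%). The letters TTTGAA, the core of the cell cycle homology region (CHR) known from promoters of mitotic genes, ran the other way: 4 of 30 members (13.3%), 10 of 49 other replication genes (20.4%) and 17 of 23 mitosis genes (73.9%) held them, against 1172 of the 8198 tested genes (14.3%). CCAAT, the letters of a common promoter box, stood in 18 of 30 members (60%), 26 of 49 other replication genes (53.1%), 19 of 23 mitosis genes (82.6%) and 3542 of the 8198 tested genes (43.2%).

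**Figure D1:**
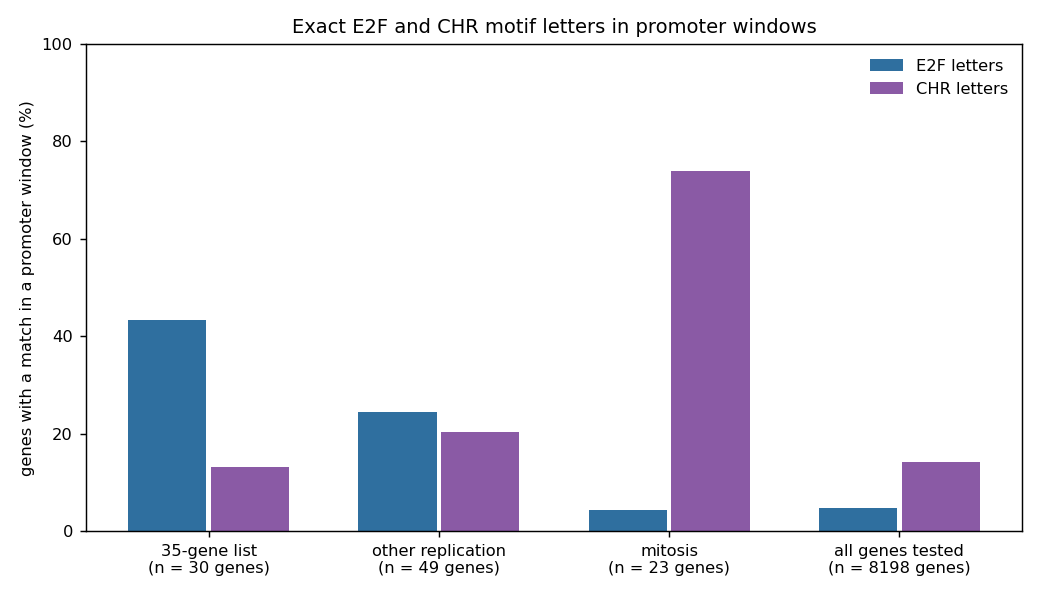
Share of genes, in percent, whose promoter window holds the E2F or the CHR letters, for the members, the other replication genes, the mitosis genes and all tested genes with a window. The E2F letters stood in 43.3% of the members and the CHR letters in 73.9% of the mitosis genes, against 4.85% and 14.3% of the tested genes.

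Levels are given below as FPKM (fragments per kilobase of a transcript, adjusted for the size of the library) divided by TMM factors that put the libraries on 1 scale. Fold changes are limma's log2 differences of scaled FPKM + 1, which understates the change of low genes, and a gene is called where p, adjusted by Benjamini-Hochberg over all 11952 tested genes, is under 0.05. Reads per library, estimated from the smallest FPKM steps, were 28550000 to 35680000. Within a group, libraries correlated at 0.986 to 0.992, and between groups at 0.785 to 0.936 (Pearson, log2 scale, over tested genes, which are not independent replicates). All 10 macrophage markers were expressed in every group. Xist was at 41.3 to 54.7 in FLM_G and 67.2 to 74.3 in FLM_M, against 0 to 0.00444 in BMM, and the Y-linked Ddx3y was at 0 to 0.0165 in FLM_G and 0 in FLM_M, against 8.47 to 10.4 in BMM, so sex moved with every comparison against BMM, and its part in them was not tested. The hepatocyte markers other than Afp, the lymphoid markers and the globins were at or near 0. The erythroid marker list was carried by Epor, at a summed 4.22 to 6.00 in FLM_G, 2.3 to 2.81 in FLM_M and 0 to 0.097 in BMM. The 7 neutrophil markers summed to 49.7 to 56.6 in FLM_G and 9.51 to 12.3 in FLM_M, nearly all of it S100a8, and to 2.69 to 3.66 in BMM. The 5 stem and progenitor markers summed to at most 0.0709 in FLM_G and 0.0486 in FLM_M and to 1.59 to 1.65 in BMM, mostly Cd34. The 5 mast and megakaryocyte markers summed to 144 to 187 in FLM_M and 188 to 197 in BMM, where only Pf4 averaged 1 or more, and to 0.474 to 0.696 in FLM_G. The 6 fibroblast and endothelial markers summed to 4.3 to 4.51 in FLM_G, where only Cdh5 averaged 1 or more. They summed to 0.642 to 0.775 in FLM_M and 0.447 to 0.637 in BMM. The part of these markers' cells in the results was not tested.

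Most of the replication genes were lowest in FLM_G and highest in FLM_M. In FLM_G against BMM, 31 of the 35 fell and the other 4 (E2f1, Chaf1b, Rfc3 and Fen1) did not pass; 34.1% of all tested genes were called lower there. In FLM_G against FLM_M, 34 fell and 1, Fen1, did not pass; 35.1% of all tested genes were called lower. In FLM_M against BMM, 19 rose, where 22.7% of all tested genes were called higher, 3 fell (E2f2, Rrm2 and Tk1), where 21.9% were called lower, and 13 passed in neither direction. The median log2 fold change of the 35 was -0.80 in FLM_G against BMM, -0.99 in FLM_G against FLM_M and 0.26 in FLM_M against BMM, beside medians of 0 over all tested genes. Without scaling the medians of the 35 were -1.19, -1.47 and 0.33 in the same order, and those of all tested genes -0.34, -0.39 and 0.05, with 2081 higher and 6775 lower calls in FLM_G against BMM in place of 4044 and 4081. In either direction, 44.6% of all tested genes were called in FLM_M against BMM, 68.0% in FLM_G against BMM and 70.6% in FLM_G against FLM_M, and 22, 31 and 34 of the 35 members. The 3 comparisons share libraries, so their counts are not independent of each other. In RNA from whole cultures, fewer cells in S phase and less of these transcripts per cell cannot be told apart.

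The changes were moderate in size. In FLM_G against FLM_M 17 members were called lower by at least 1 on the log2 scale, and in FLM_G against BMM 9 were. How many of all tested genes passed this limit was not counted, so these counts only describe the members. In FLM_M against BMM the members ranged from -0.87 to 0.77. Without regard to the test, the 3 FLM_M libraries lay above every BMM library in 22 members (28.9% of tested genes) and below in 5 (28.4%). The 3 FLM_G libraries lay below every BMM library in 31 (37.1%) and above in 1, Rfc3 (36.1%), and they lay below every FLM_M library in 34 (36.2%; 36.2% of tested genes lay above). In 19 members the libraries of all 3 groups stood apart in the order FLM_M, BMM, FLM_G. The share of all tested genes with that order was not counted, so the 19 only describe the members. The spread within a group was small, with a median coefficient of variation of 4.84% in FLM_G, 5.74% in FLM_M and 3.79% in BMM over the 35 members.

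**Figure D2:**
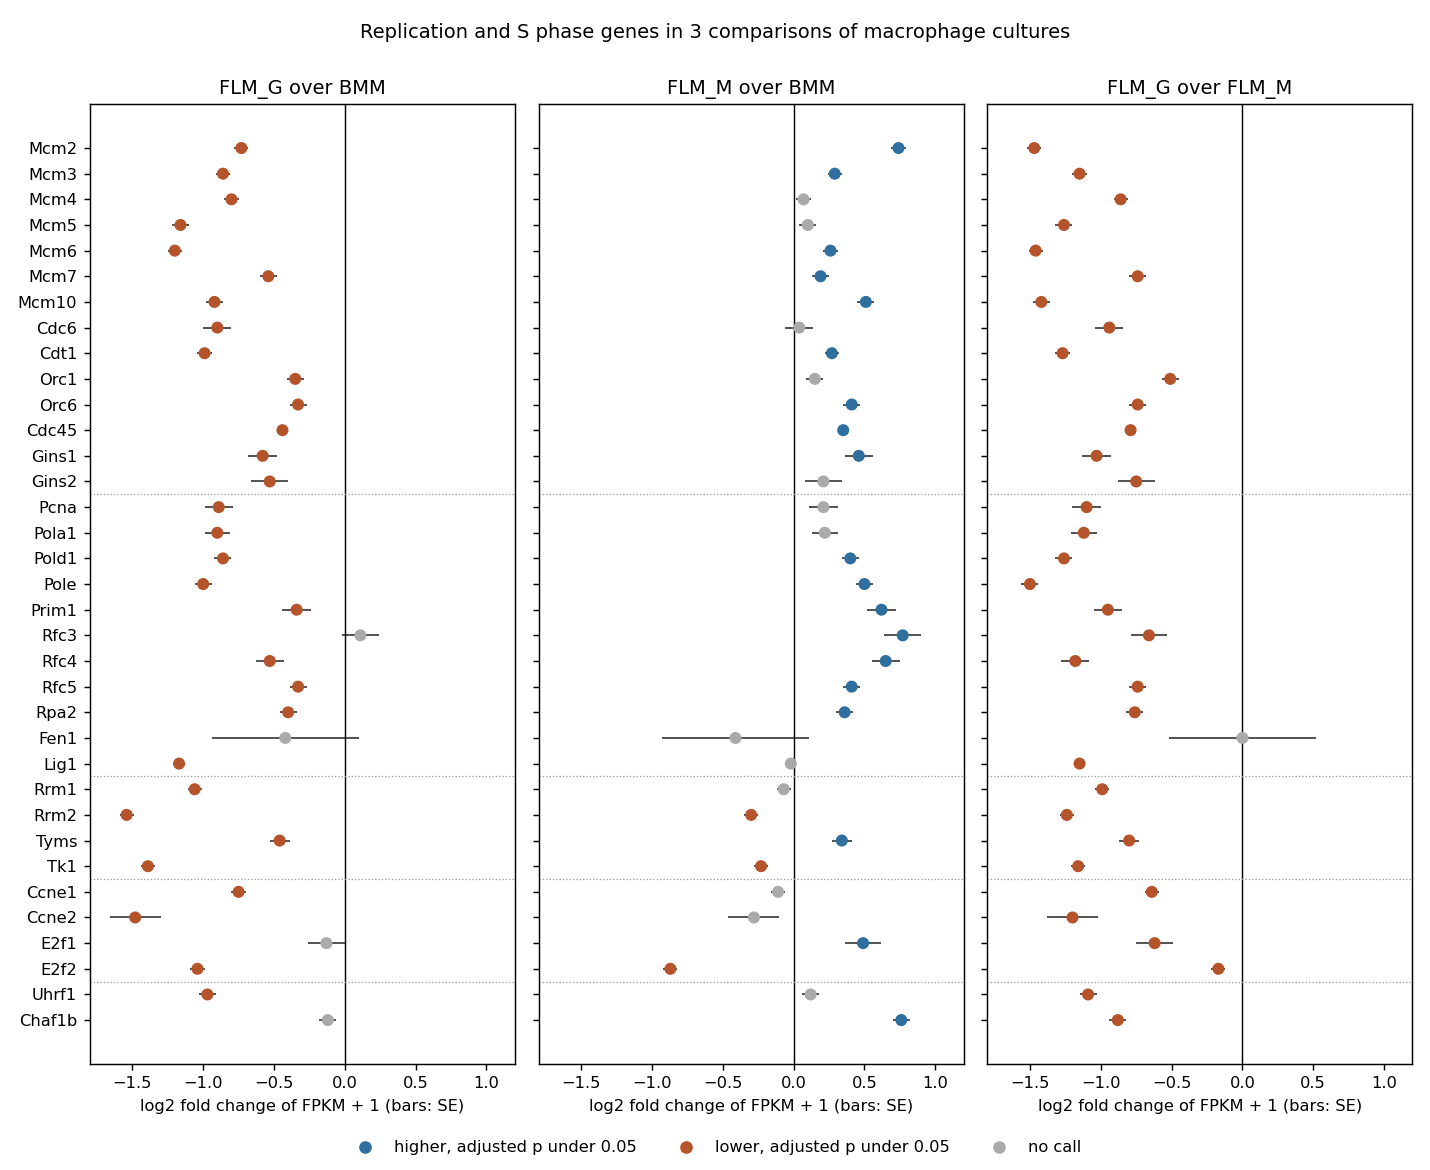
Log2 fold change of FPKM + 1 of the 35 genes in each comparison (points, with bars of 1 SE), ordered by role, with the colour giving the call at an adjusted p under 0.05. Nearly all points of both FLM_G comparisons lie left of 0, with medians of -0.80 against BMM and -0.99 against FLM_M, while FLM_M against BMM has points on both sides and a median of 0.26.

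The helicase and its loading factors moved together in the 2 comparisons of FLM_G: all 14 were called lower against BMM and against FLM_M. In FLM_M against BMM 9 of the 14 were called higher and 5 did not pass, with a median of 0.27. Of all tested genes, 34.1% were called lower in FLM_G against BMM and 35.1% in FLM_G against FLM_M. In FLM_M against BMM 22.7% of them were called higher. Mcm2, a subunit of the MCM ring, had 20.7, 20.5 and 22.0 scaled FPKM in FLM_G, 63.2, 59.0 and 58.1 in FLM_M and 34.2, 36.8 and 35.8 in BMM. No library of a group overlapped another group's. The mean level in FLM_M was 1.69 times that in BMM and 2.85 times that in FLM_G (log2 fold change of FLM_M over BMM 0.74 ± 0.05 SE, limma adjusted p = 5.27e-06; of FLM_G over FLM_M -1.47 ± 0.05 SE, adjusted p = 1.73e-08).

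Mcm6, another subunit of that ring and the most abundant of the 6 in every group, had 25.5, 24 and 24.2 scaled FPKM in FLM_G, 70.6, 66.8 and 71.4 in FLM_M and 59.6, 57.1 and 56.5 in BMM. The groups again stood apart, with FLM_G far below the others and FLM_M a little above BMM. The log2 fold change was -1.20 ± 0.05 (SE) in FLM_G against BMM (limma adjusted p = 3.54e-08) and 0.26 ± 0.05 (SE) in FLM_M against BMM (adjusted p = 0.00167). Mcm7, the least abundant of the 6, had 15.6, 16.8 and 16.8 in FLM_G, 28.3, 28.7 and 26.9 in FLM_M and 22.4, 24.8 and 26 in BMM. Its fall in FLM_G was smaller (-0.54 ± 0.06 SE against BMM, adjusted p = 6.53e-05). Its rise in FLM_M over BMM (0.19 ± 0.06 SE, adjusted p = 0.0347) is close to the threshold and was lost without BMM replicate 1 or 2, FLM_M replicate 1 or 2, or FLM_G replicate 2 (adjusted p up to 0.124), and in a fit of the 6 compared libraries alone (adjusted p = 0.0557).

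The 6 subunits, which are present in equal number in the ring, were thus closer to each other in FLM_G. Mcm6 averaged 1.5 times Mcm7 in FLM_G, 2.49 times in FLM_M and 2.37 times in BMM. Mcm3 averaged 21.1 ± 1.1 scaled FPKM in FLM_G, 48.1 ± 0.75 in FLM_M and 39.1 ± 1.3 in BMM (SD, n = 3 each), and passed the test in every comparison. Mcm4 (19.7 ± 0.67 in FLM_G, 36.7 ± 2.0 in FLM_M and 35 ± 1.3 in BMM) and Mcm5 (23.7 ± 0.79, 58.3 ± 3.8 and 54.2 ± 2.1 in the same order) fell in FLM_G but did not pass in FLM_M against BMM, where their libraries overlapped.

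Cdt1, which brings the helicase to origins and is removed once they fire, had 22.1, 23.4 and 22.8 scaled FPKM in FLM_G, 57.0, 58.4 and 53.1 in FLM_M and 44.9, 46.8 and 47.0 in BMM. Its groups did not overlap, and its log2 fold change was -0.99 ± 0.05 (SE) in FLM_G against BMM (limma adjusted p = 1.79e-07). Its partner Cdc6 averaged 2.58 ± 0.37 in FLM_G, 5.90 ± 0.80 in FLM_M and 5.67 ± 0.29 in BMM (SD, n = 3 each). Cdc6 fell in FLM_G (-0.90 ± 0.10 SE against BMM, adjusted p = 5.99e-05), while FLM_M and BMM overlapped (0.04 ± 0.10 SE, adjusted p = 0.764), a difference whose sign turned to -0.04 without FLM_M replicate 1. The origin recognition complex subunits fell less: Orc1, the largest subunit, by 0.35 and Orc6 by 0.33 on the log2 scale in FLM_G against BMM. Orc6 averaged 7.51 times Orc1 in FLM_G, 7.95 times in FLM_M and 6.80 times in BMM, so this ratio varied little.

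Of the factors that turn the loaded ring into a working helicase, Mcm10, needed for origin firing, moved most. Mcm10 had 2.89, 2.51 and 2.74 scaled FPKM in FLM_G, 9.46, 8.48 and 8.90 in FLM_M and 5.91, 6.09 and 5.99 in BMM. The 3 groups stood apart, with FLM_M 1.49 times BMM and 3.30 times FLM_G. Cdc45, the helicase cofactor, averaged 12.6 ± 0.32 in FLM_G, 22.5 ± 0.41 in FLM_M and 17.4 ± 0.27 in BMM (SD, n = 3 each), with each difference called. Gins1 (9.82 ± 0.62, 21.3 ± 3.2 and 15.1 ± 0.96 in the same order) passed in every comparison. Gins2 (5.28 ± 0.77, 9.53 ± 1.3 and 8.09 ± 1.3) did not pass in FLM_M against BMM (adjusted p = 0.234).

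**Figure D3:**
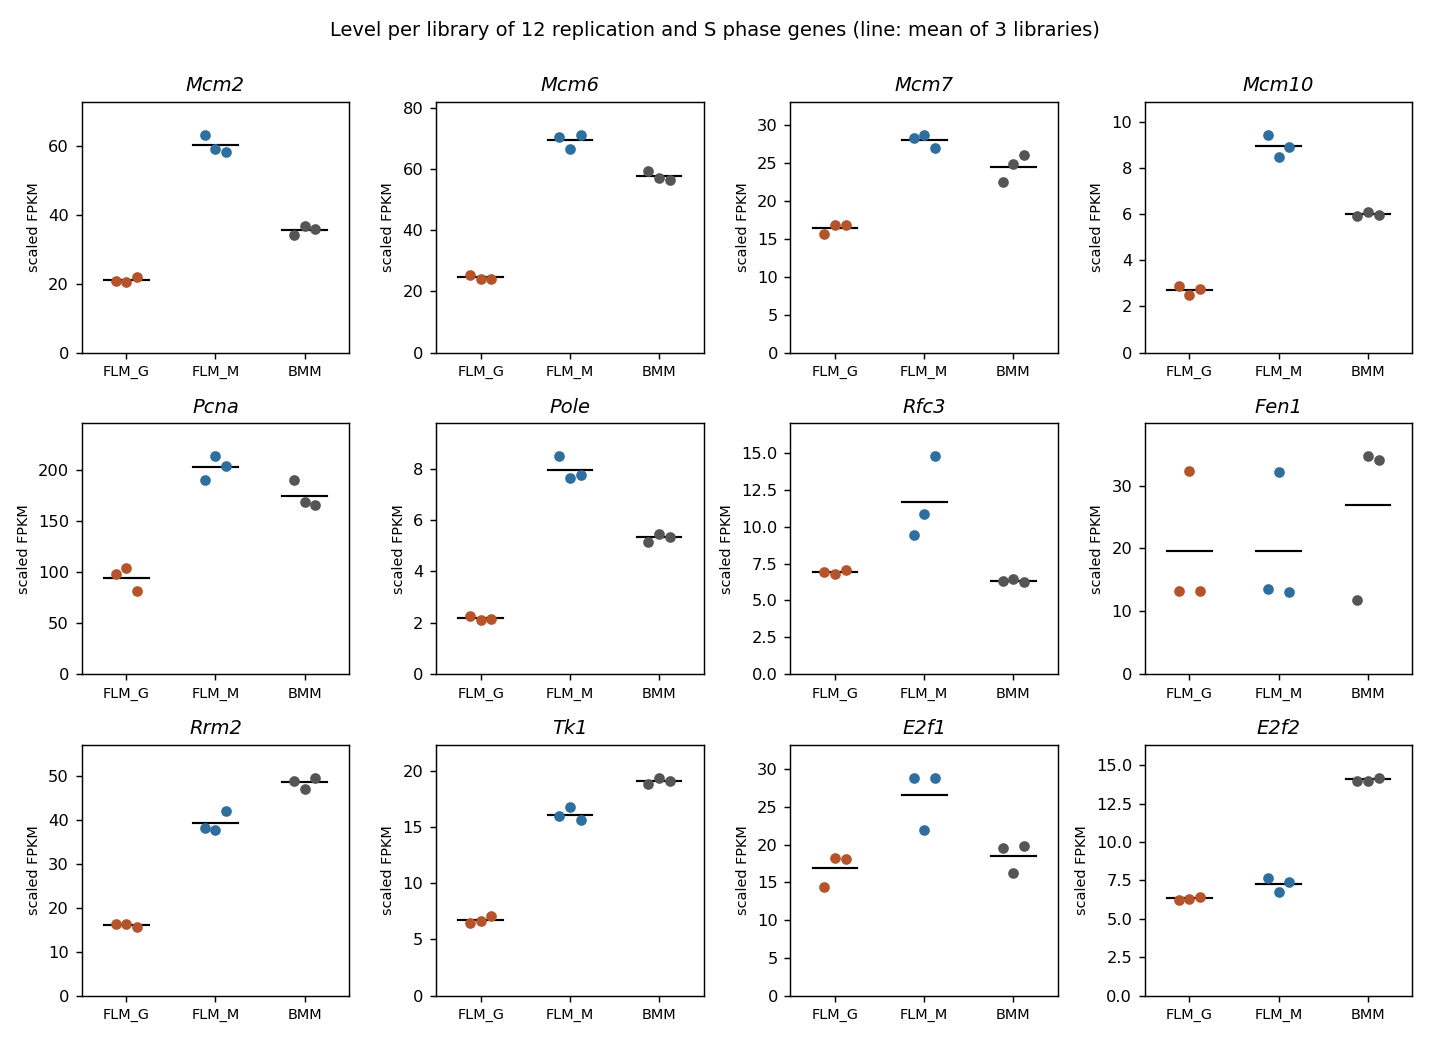
Scaled FPKM of members in every library (points; FLM_G, FLM_M and BMM from left to right; bars at the group means), each panel with its own axis from 0. Mcm2, Mcm6 and Pole are lowest in the 3 FLM_G libraries and highest in FLM_M, E2f2 is highest in the 3 BMM libraries, and Fen1 has a high and a low level within each group.

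Among the 11 genes of the polymerases and the fork, 9 fell in FLM_G against BMM, 10 in FLM_G against FLM_M, and 7 rose in FLM_M against BMM. The shares of all tested genes were 34.1%, 35.1% and 22.7% in the same order. Pole, the catalytic subunit of polymerase epsilon, which copies the leading strand, had 2.28, 2.10 and 2.13 scaled FPKM in FLM_G, 8.49, 7.65 and 7.74 in FLM_M and 5.13, 5.47 and 5.35 in BMM. The groups stood apart, and FLM_M had 3.67 times the level of FLM_G, the widest ratio among the members in that comparison (log2 fold change of FLM_G over FLM_M -1.5 ± 0.06 SE, limma adjusted p = 3.25e-08). Pold1, the catalytic subunit of polymerase delta, which copies the lagging strand, averaged 6.73 ± 0.54 in FLM_G, 17.5 ± 0.38 in FLM_M and 13.0 ± 0.56 in BMM (SD, n = 3 each). Pola1, the catalytic subunit of polymerase alpha, averaged 1.92 ± 0.23 in FLM_G, 5.36 ± 0.55 in FLM_M and 4.45 ± 0.42 in BMM, the lowest mean of any member in FLM_G. Pola1 is on the X chromosome; it fell in FLM_G by 0.90 on the log2 scale against BMM and did not pass in FLM_M against BMM (adjusted p = 0.0846).

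Prim1, the primase subunit that works with Pola1, had 8.42, 6.75 and 6.84 scaled FPKM in FLM_G, 13.2, 16.8 and 15.5 in FLM_M and 9.24, 9.26 and 9.98 in BMM. The FLM_M libraries lay above all others, and the FLM_G libraries below all of BMM by a small gap. The rise in FLM_M over BMM was 0.62 ± 0.10 (SE; adjusted p = 0.00129). The fall in FLM_G against BMM (-0.34 ± 0.10 SE, limma adjusted p = 0.0175) was lost without BMM replicate 3, FLM_G replicate 2 or FLM_G replicate 3 (adjusted p of 0.0523, 0.0757 and 0.0698). Prim1 thus averaged 3.83 times Pola1 in FLM_G, 2.83 times in FLM_M and 2.13 times in BMM.

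Pcna, the sliding clamp and the most abundant member, had 98.2, 104 and 81.7 scaled FPKM in FLM_G, 191, 214 and 204 in FLM_M and 191, 169 and 166 in BMM. FLM_G stood below the other groups, while the lowest FLM_M library lay just above the highest of BMM. Pcna fell in FLM_G (-0.89 ± 0.10 SE against BMM, limma adjusted p = 4.3e-05) and did not pass in FLM_M against BMM (0.21 ± 0.10 SE, adjusted p = 0.11), though it did without FLM_G replicate 3.

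Rfc3, a small subunit of the clamp loader, departed from this order. It had 6.92, 6.81 and 7.10 scaled FPKM in FLM_G, 9.46, 10.9 and 14.8 in FLM_M and 6.32, 6.47 and 6.24 in BMM. The groups stood apart with BMM lowest, and the FLM_M libraries were widely spread. Rfc3 rose in FLM_M over BMM (0.77 ± 0.13 SE, limma adjusted p = 0.00135), while FLM_G against BMM did not pass (0.11 ± 0.13 SE, adjusted p = 0.456), and its sign turned to -0.25 without scaling. Its partners Rfc4 (6.49 ± 0.079 in FLM_G, 16.1 ± 2.5 in FLM_M, 9.86 ± 0.45 in BMM; SD, n = 3 each) and Rfc5 (6.58 ± 0.056, 11.7 ± 0.72 and 8.51 ± 0.29 in the same order) followed the common order. The highest of these 3 subunits had 1.07 times the level of the lowest in FLM_G, 1.38 times in FLM_M and 1.55 times in BMM.

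Rpa2, part of the complex that coats unwound DNA, averaged 11 ± 0.24 scaled FPKM in FLM_G, 19.2 ± 0.38 in FLM_M and 14.8 ± 1.1 in BMM (SD, n = 3 each) and passed in every comparison. Lig1, the ligase that seals the fragments of the lagging strand, had 15.3, 14.7 and 14.6 in FLM_G, 35.1, 34.1 and 33.6 in FLM_M and 35.5, 34.4 and 34.1 in BMM. FLM_G lay far below, and FLM_M and BMM overlapped throughout. The log2 fold change of Lig1 was -1.17 ± 0.04 (SE) in FLM_G against BMM (limma adjusted p = 2.11e-08) and -0.02 ± 0.04 (SE) in FLM_M against BMM (adjusted p = 0.778), a difference near 0 that turned to 0.05 without scaling and to 0.01 without FLM_M replicate 3. Fen1, the nuclease that trims those fragments, had 13.3, 32.3 and 13.2 in FLM_G, 13.6, 32.1 and 13.0 in FLM_M and 11.8, 34.7 and 34.1 in BMM. Each group held libraries near 13 and libraries above 30, so the groups overlapped and no comparison passed. Fen1 lies on chromosome 19 and overlaps Tmem258 and Gm10143 on the opposite strand; their part in these levels was not tested.

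All 4 enzymes of deoxynucleotide supply fell in FLM_G in both comparisons, with a median of -1.22 against BMM. Over all tested genes 34.1% fell against BMM and 35.1% against FLM_M. Rrm2, the regulated subunit of ribonucleotide reductase, had 16.4, 16.2 and 15.6 scaled FPKM in FLM_G, 38.2, 37.7 and 41.9 in FLM_M and 48.9, 47.1 and 49.6 in BMM. Here BMM was highest and no groups overlapped. Rrm2 fell by 1.54 on the log2 scale in FLM_G against BMM (± 0.05 SE, limma adjusted p = 1.56e-08) and by 0.30 in FLM_M against BMM (± 0.05 SE, adjusted p = 0.00162).

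Tk1, the cytosolic thymidine kinase of the salvage pathway, had 6.43, 6.61 and 7.06 scaled FPKM in FLM_G, 16, 16.8 and 15.6 in FLM_M and 18.8, 19.4 and 19.1 in BMM. It had the same order as Rrm2, with BMM 2.85 times FLM_G and 1.18 times FLM_M (log2 fold change of FLM_M over BMM -0.23 ± 0.05 SE, limma adjusted p = 0.00557). Rrm1, the large subunit of ribonucleotide reductase, averaged 39.4 ± 2.1 in FLM_G, 79.2 ± 0.29 in FLM_M and 83.2 ± 3.7 in BMM (SD, n = 3 each) and did not pass in FLM_M against BMM (adjusted p = 0.316). Rrm1 was thus 2.45 times Rrm2 in FLM_G, 2.02 times in FLM_M and 1.71 times in BMM. Tyms, the thymidylate synthase, was the exception in FLM_M, at 3.87 ± 0.28 in FLM_G, 7.46 ± 0.60 in FLM_M and 5.68 ± 0.14 in BMM, and rose over BMM (0.34 ± 0.07 SE, adjusted p = 0.0039).

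The genes of S phase entry did not move as a block. Ccne1 and Ccne2 encode the E cyclins, which drive Cdk2 at the start of S phase, and E2f1 and E2f2 encode activator E2F factors. E2f2 had 6.24, 6.31 and 6.43 scaled FPKM in FLM_G, 7.63, 6.78 and 7.39 in FLM_M and 14.0, 14.0 and 14.2 in BMM. Both kinds of fetal liver culture lay far below BMM and close to each other. E2f2 fell by 0.87 on the log2 scale in FLM_M against BMM (± 0.05 SE, limma adjusted p = 1.93e-06), the largest fall among the members there, and by 1.04 in FLM_G against BMM (± 0.05 SE, adjusted p = 2.14e-07). The small fall in FLM_G against FLM_M (-0.17 ± 0.05 SE, adjusted p = 0.0158) was lost without FLM_G replicate 1 or 2 (adjusted p of 0.056 and 0.0665).

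E2f1 had 14.4, 18.2 and 18.1 scaled FPKM in FLM_G, 28.8, 22.0 and 28.9 in FLM_M and 19.6, 16.2 and 19.8 in BMM. FLM_M was highest without overlap, and FLM_G and BMM overlapped. E2f1 rose in FLM_M over BMM (0.49 ± 0.13 SE, limma adjusted p = 0.0158), a call lost without BMM replicate 2 or FLM_M replicate 3 (adjusted p of 0.0614 and 0.0559), and did not pass in FLM_G against BMM (-0.13 ± 0.13 SE, adjusted p = 0.417), though it did without scaling (-0.53). So E2f1 was highest in FLM_M and E2f2 in BMM.

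Ccne2 had 2.81, 3.56 and 3.17 scaled FPKM in FLM_G, 9.49, 7.02 and 9.47 in FLM_M and 13.7, 11.1 and 7.86 in BMM. FLM_G was lowest without overlap, and the BMM libraries were widely spread around those of FLM_M. The log2 fold change in FLM_G against BMM was -1.48 ± 0.18 (SE, limma adjusted p = 0.000107), where BMM had 3.42 times the level of FLM_G. FLM_M against BMM did not pass (-0.28 ± 0.18 SE, adjusted p = 0.257), though it did without BMM replicate 3. Ccne1 averaged 6.86 ± 0.19 in FLM_G, 11.2 ± 0.53 in FLM_M and 12.2 ± 0.36 in BMM (SD, n = 3 each), and fell in FLM_G but did not pass in FLM_M against BMM (adjusted p = 0.109).

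Of the chromatin genes, Chaf1b, a subunit of the assembly factor that places histones on new DNA, had 7.38, 7.28 and 8.38 scaled FPKM in FLM_G, 14.4, 15.8 and 14.8 in FLM_M and 8.52, 8.49 and 8.25 in BMM. FLM_M lay well above both other groups, which overlapped. Chaf1b rose in FLM_M over BMM by 0.76 ± 0.06 (SE, limma adjusted p = 1.47e-05), and FLM_G against BMM did not pass (-0.12 ± 0.06 SE, adjusted p = 0.12) except without scaling (-0.49), under upper-quartile scaling, or without FLM_G replicate 3. Uhrf1, which binds newly copied DNA so that its methylation is restored, averaged 19.7 ± 1.1 in FLM_G, 43.1 ± 1.9 in FLM_M and 39.6 ± 1.7 in BMM (SD, n = 3 each); it fell in FLM_G and did not pass in FLM_M against BMM (adjusted p = 0.128).

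The rest of the replication machinery was read from 61 further genes listed by function, all of them tested. Of these 41 fell and 8 rose in FLM_G against BMM (median -0.38), 47 fell and 5 rose in FLM_G against FLM_M (median -0.60), and 31 rose and 3 fell in FLM_M against BMM (median 0.19). In the same order, 34.1% of all tested genes fell and 33.8% rose, 35.1% fell and 35.5% rose, and 22.7% rose and 21.9% fell. At origins, Dbf4, the activator of the Cdc7 kinase, averaged 4.48 ± 0.24 scaled FPKM in FLM_G and 8.59 ± 0.65 in BMM (SD, n = 3 each), and Gmnn, the inhibitor of Cdt1, averaged 23.4 ± 3.2 in FLM_G and 39.8 ± 2.0 in BMM. Mtbp, a partner of the origin firing factor Ticrr, had 6.46 ± 0.45 in FLM_M and 3.56 ± 0.07 in BMM, the largest rise of that group. Orc3 was higher in FLM_G than BMM (0.16 ± 0.06 SE, adjusted p = 0.0309), a sign that turned to -0.20 without scaling.

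Of the 8 genes that rose in FLM_G over BMM, 5 were among the 24 listed fork genes. Both counts are smaller shares of their lists than the 33.8% of all tested genes that rose there. Clspn and Timeless, which protect the fork, fell in FLM_G against FLM_M by 1.39 and 1.41 on the log2 scale, and Timeless rose in FLM_M over BMM by 0.91 ± 0.07 (SE, limma adjusted p = 1.19e-05). Pold4, the small accessory subunit of polymerase delta, had 67.7, 69.6 and 77.0 scaled FPKM in FLM_G, 17.8, 20.5 and 17.8 in FLM_M and 25.3, 28.1 and 28.8 in BMM. Its FLM_G libraries lay far above all others (1.35 ± 0.08 SE against BMM, adjusted p = 5.32e-07; 1.88 ± 0.08 SE against FLM_M, adjusted p = 4.94e-08). The 3 subunits of ribonuclease H2, which removes ribonucleotides from DNA, also rose in FLM_G over BMM: Rnaseh2a by 0.60, Rnaseh2b by 0.65 and Rnaseh2c by 0.81 on the log2 scale. Without scaling these were 0.22, 0.28 and 0.42 and were still called. Against FLM_M, Rnaseh2a rose by 0.47, Rnaseh2b by 0.38 and Rnaseh2c by 0.83, but without scaling only Rnaseh2c was still called (0.37), with Rnaseh2a at 0.04 (adjusted p = 0.582) and Rnaseh2b at -0.05. Pold3, a further polymerase delta subunit, rose in FLM_G over BMM by 0.41, and over FLM_M by 0.13, which without scaling became 0.01 against BMM (adjusted p = 0.81) and -0.33 against FLM_M. Chtf18, of an alternative clamp loader, fell in FLM_G against BMM by 0.90, and Pole4, a small polymerase epsilon subunit, rose in FLM_M over BMM by 0.62.

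Rpa1, the large subunit of the single-stranded DNA binding complex, differed from Rpa2. It had 13.1, 6.43 and 6.72 scaled FPKM in FLM_G, 13.4, 8.66 and 10.1 in FLM_M and 26.8, 24.2 and 24 in BMM. Both kinds of fetal liver culture lay below BMM and overlapped each other, with falls of 1.48 in FLM_G and 1.17 in FLM_M against BMM on the log2 scale (± 0.24 SE each, limma adjusted p = 0.000627 and 0.00444).

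In nucleotide supply, Dck, the deoxycytidine kinase, had 10.6, 10.6 and 8.71 scaled FPKM in FLM_G, 45.9, 32.7 and 44.6 in FLM_M and 42.8, 37.8 and 39.2 in BMM. Its FLM_G libraries lay far below the rest (-1.90 ± 0.13 SE against BMM, limma adjusted p = 1.92e-06). Samhd1, which breaks deoxynucleotides down, ran the other way at 34.7 ± 0.75 in FLM_G and 28.2 ± 0.81 in BMM (SD, n = 3 each; 0.29 ± 0.06 SE, adjusted p = 0.00212), a sign that turned to -0.12 without scaling, and Shmt1, a folate enzyme, rose by 0.44, a call lost without scaling (0.12, adjusted p = 0.162). Cad, which starts pyrimidine synthesis, fell in FLM_M against BMM by 0.33, and Dut, which hydrolyses dUTP, rose there by 0.27. Of the chromatin genes, Dnmt1, the methyltransferase that Uhrf1 recruits, fell in FLM_G by 1.10 against BMM and by 1.10 against FLM_M, and Asf1b, a histone chaperone, by 0.95 and 1.05.

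**Figure D4:**
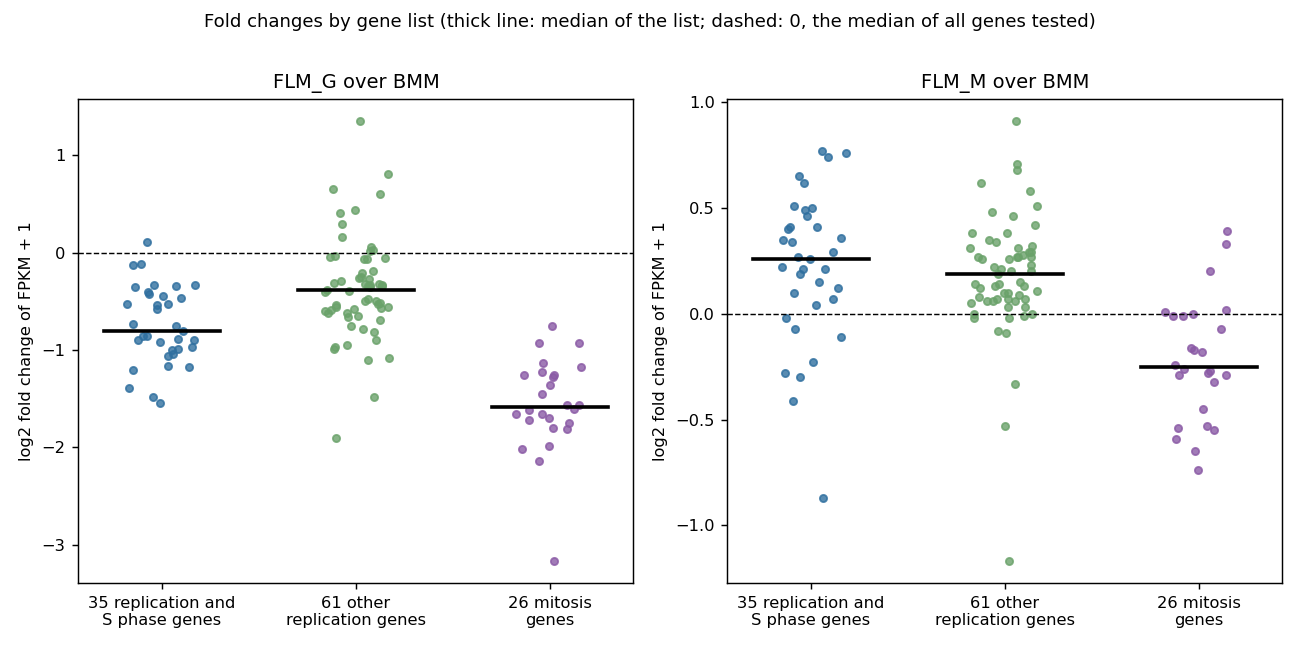
Log2 fold change of FPKM + 1 of each gene (points) in the 35 replication and S phase genes, 61 other replication genes and 26 mitosis genes, with a thick line at each median and a dashed line at 0. The mitosis genes lie lowest in FLM_G against BMM (median -1.58) and below 0 in FLM_M against BMM (median -0.25), where the 35 genes have a median of 0.26.

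The genes of mitosis, which act after S phase is complete, did not follow the replication genes in FLM_M. In FLM_M against BMM 15 of 26 mitosis genes fell and 2 rose, with a median of -0.25, while 19 of the 35 replication genes rose and 3 fell. Over all tested genes 21.9% fell and 22.7% rose there. Ccnb2, a mitotic cyclin, averaged 51.7 ± 2.5 scaled FPKM in FLM_M and 87.1 ± 2.0 in BMM (-0.74 ± 0.06 SE, limma adjusted p = 1.04e-05), and Cdc20, which activates the ubiquitin ligase of anaphase, 23.2 ± 0.56 in FLM_M and 37.0 ± 1.0 in BMM (SD, n = 3 each). Cenpf, of the kinetochore, fell by 0.59 and Ube2c, the conjugating enzyme that works with Cdc20, by 0.55 on the log2 scale. The 2 that rose were Ndc80, of the kinetochore, by 0.39 and Foxm1, the transcription factor of mitotic genes, by 0.33. Mki67, a general marker of cycling cells, had 38.6, 35.2 and 38.2 in FLM_G, 94.3, 82.9 and 93.3 in FLM_M and 89.5, 91.5 and 91.2 in BMM, so FLM_M and BMM overlapped. The difference between the 2 lists was not tested.

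In FLM_G all 26 mitosis genes fell, with medians of -1.58 against BMM and -1.26 against FLM_M, against -0.80 and -0.99 for the 35. Over all tested genes 34.1% fell against BMM and 35.1% against FLM_M. Foxm1 had 1.78, 1.54 and 1.5 scaled FPKM in FLM_G, 30.2, 27.8 and 27.9 in FLM_M and 21.3, 23.6 and 22.7 in BMM. Its FLM_G libraries lay far below all others (-3.17 ± 0.06 SE against BMM, limma adjusted p = 5.8e-10; -3.51 ± 0.06 SE against FLM_M, adjusted p = 2.5e-10). Cenpf, Nuf2 and Ndc80, all of the kinetochore, fell in FLM_G against BMM, with log2 fold changes of -2.14, -2.02 and -1.99, and Bub1, a checkpoint kinase, fell against FLM_M (-1.58).

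A list of 31 regulators of S phase entry held further E2F genes and their partners, the retinoblastoma family, cyclins, kinases and kinase inhibitors. Of the 30 tested, 18 fell and 2 rose in FLM_G against BMM, 19 fell and 4 rose in FLM_G against FLM_M, and 9 rose and 7 fell in FLM_M against BMM. Over all tested genes 34.1% fell and 33.8% rose, 35.1% fell and 35.5% rose, and 22.7% rose and 21.9% fell in the same order, so the regulators' counts in FLM_M against BMM are near those of all genes. The D cyclins, which carry growth factor signals to the retinoblastoma family, did not move alike. Ccnd1 had 24.6, 22.9 and 20.5 scaled FPKM in FLM_G, 294, 261 and 282 in FLM_M and 190, 193 and 191 in BMM. Ccnd2 had 33.0, 33.0 and 30.4 in FLM_G, 10.1, 7.96 and 9.08 in FLM_M and 1.13, 1.18 and 0.996 in BMM. No groups overlapped for either gene: Ccnd1 fell in FLM_G by 3.03 against BMM and 3.57 against FLM_M, and Ccnd2 rose by 3.98 (± 0.08 SE) against BMM and 1.72 (± 0.08 SE) against FLM_M on the log2 scale, with limma adjusted p of 1.35e-09, 3.78e-10, 7.26e-10 and 1.48e-07. In FLM_M against BMM both rose, Ccnd1 by 0.54 ± 0.07 (SE, adjusted p = 0.000285) and Ccnd2 by 2.25 ± 0.08 (SE, adjusted p = 8.78e-08). Ccnd3, the other D cyclin, averaged 3.83 ± 0.85 in FLM_G, 2.73 ± 0.80 in FLM_M and 3.04 ± 0.65 in BMM (SD, n = 3 each) and passed in no comparison (adjusted p of 0.111 for FLM_G against FLM_M, 0.276 for FLM_G against BMM and 0.638 for FLM_M against BMM).

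The inhibitors of cyclin-dependent kinases did not all move alike. Cdkn1a (p21) had 106, 112 and 113 scaled FPKM in FLM_G, 35.4, 32.6 and 33.3 in FLM_M and 122, 124 and 125 in BMM. FLM_M was the low group, with a fall of 1.84 against BMM on the log2 scale (± 0.05 SE, limma adjusted p = 8.1e-09), and FLM_G was a little below BMM. Cdkn2c (p18) had 10.2, 9.31 and 9.09 in FLM_G, 44.0, 41.4 and 44.5 in FLM_M and 45.9, 47.6 and 46.1 in BMM. Here FLM_G was low (-2.17 ± 0.05 SE against BMM, adjusted p = 2.02e-09), with FLM_M just below BMM. Cdkn2d was low in FLM_G too, at 14.1 ± 0.67, against 47.2 ± 3.6 in FLM_M and 34.5 ± 1.4 in BMM (SD, n = 3 each). Its log2 fold changes, each called, were -1.23 in FLM_G against BMM, -1.67 in FLM_G against FLM_M and 0.44 in FLM_M against BMM.

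Cdkn2a, whose locus encodes p16 and p19ARF, had 15.5, 15.4 and 20.6 scaled FPKM in FLM_G, 25.6, 30.2 and 26.8 in FLM_M and 1.67, 1.92 and 1.55 in BMM. Both kinds of fetal liver culture lay far above BMM (2.73 ± 0.12 SE in FLM_G, limma adjusted p = 7.17e-08; 3.39 ± 0.12 SE in FLM_M, adjusted p = 5.55e-08). Its neighbour Cdkn2b averaged 0.915 ± 0.12 in FLM_G, 5.07 ± 0.14 in FLM_M and 0.788 ± 0.15 in BMM (SD, n = 3 each), so only FLM_M was high. Cdkn1c (p57) averaged 0.353 ± 0.058 in FLM_G, 0.447 ± 0.046 in FLM_M and 2.15 ± 0.19 in BMM, a fall of 1.22 in FLM_G and 1.12 in FLM_M on the log2 scale. Cdkn1b averaged 5.48 ± 1.3, 10.2 ± 0.88 and 7.51 ± 1.6 in the same order. It was called only in FLM_G against FLM_M, where it fell (log2 fold change -0.80).

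Of the E2F partners and repressors, E2f8, a repressor E2F, had 3.00, 3.94 and 3.78 scaled FPKM in FLM_G, 18.2, 17.6 and 14.0 in FLM_M and 14.2, 15.9 and 15.6 in BMM, so that FLM_G was low and the others overlapped (-1.94 ± 0.11 SE against FLM_M, limma adjusted p = 5.17e-07). Lin9, of the MuvB complex that works with the retinoblastoma family and with B-Myb, averaged 0.796 ± 0.091 in FLM_G, 5.12 ± 0.20 in FLM_M and 4.23 ± 0.29 in BMM (SD, n = 3 each). Rb1, the retinoblastoma gene, and its relative Rbl2 fell in FLM_M against BMM by 0.37 and 0.35 on the log2 scale. They were higher in FLM_G than FLM_M by 0.32 and 0.47, but without scaling Rb1 turned to -0.12 there and Rbl2 was no longer called (0.05, adjusted p = 0.531). Tfdp1, the partner that E2F factors bind DNA with, E2f6, a repressor E2F, and Ccna2, the S phase cyclin, fell in FLM_M against BMM by 0.24, 0.47 and 0.35.

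**Figure D5:**
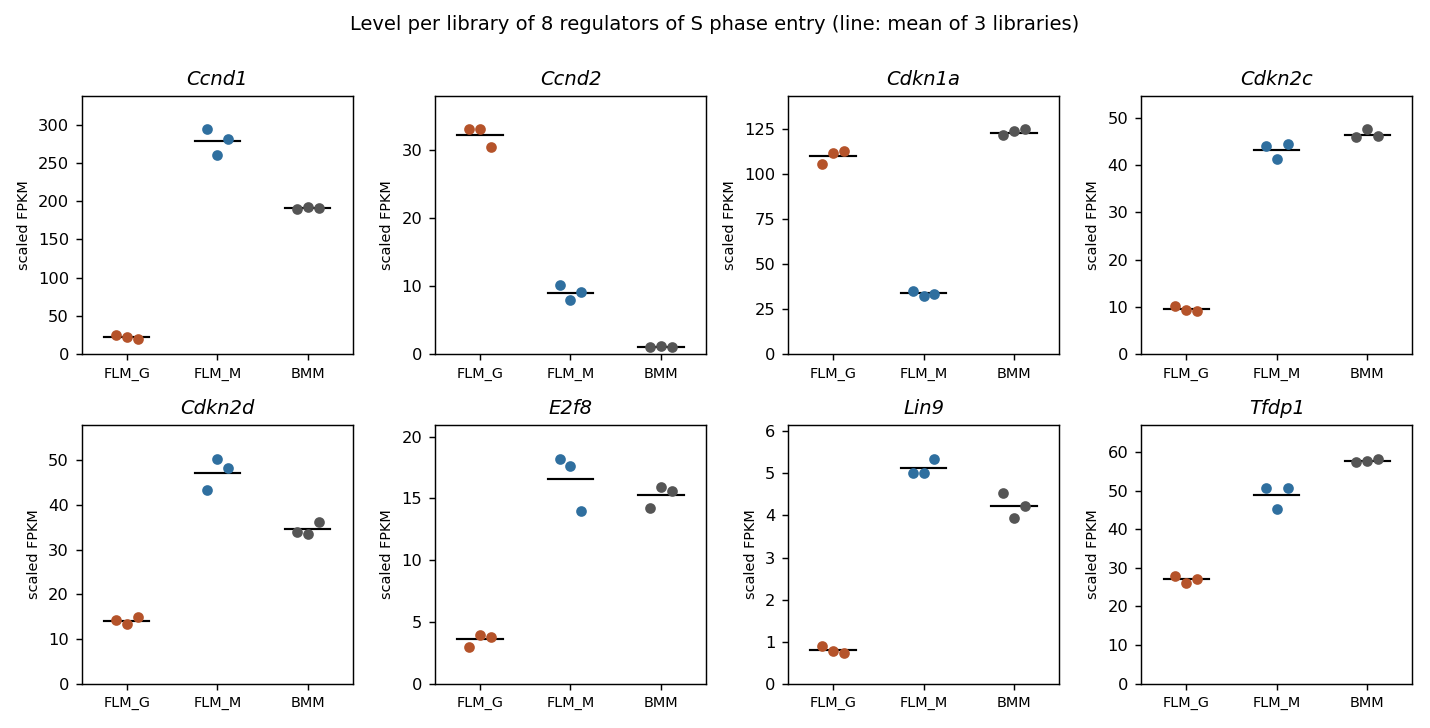
Scaled FPKM of regulators of S phase entry in every library (points; FLM_G, FLM_M and BMM from left to right; bars at the group means), each panel with its own axis from 0. Ccnd1 is at 20.5 to 24.6 in FLM_G and at least 190 in the other groups, Ccnd2 is highest in FLM_G, and Cdkn1a is low in FLM_M, at 32.6 to 35.4.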

How the data were processed

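The authors deposited 2 tables with a column per library: whole-number read counts per gene and FPKM. The submitters' processing notes name GRCm38 and mm10 as builds, and as tools StringTie, HISAT2, DESeq2, cutadapt, FastQC and bcl2fastq; their versions and the tool behind each table are not given in the sources used here. Per the labels' protocols the libraries were TruSeq stranded mRNA, read for 101 cycles from 1 end.

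The deposited FPKM were the main measure. The deposited counts summed to only 782400 to 1170813 per library, against 28550000 to 35680000 reads estimated from the smallest FPKM steps (28.9% to 34.3% of the lowest values lay within 0.02 of a whole read), and the counts of the members were a median 2% of the reads their FPKM imply, so the counts served only for alternatives (edgeR and DESeq2 1.42.0). No source used here gives the strand setting of the counts; it may have been opposite to that of the stranded kit, and a gene's counts would then be reads of the other strand.

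FPKM were divided by a TMM factor per library (edgeR 4.0.16; 0.80 to 1.14). Genes at an FPKM of 1 or above in 3 or more libraries entered limma 3.58.1 (trend, R 4.3.3) as log2(scaled FPKM + 1), in 1 model of the 9 libraries with a mean for each group and Benjamini-Hochberg adjustment over all tested genes. SD and n are over the 3 libraries of a group. The members and lists were chosen with earlier results of these data known. All members are named; of each other list, up to 4 called genes that changed most, where their higher group averaged 5 or more, and called genes that ran against the majority; 1 gene that this rule names is not reported here. Mki67, Ccnd3, Cdk2, Cdkn1b and the genes of the figures were named besides. Promoter sequences are from RefSeq (GRCm38.p6); Ensembl genes were matched by symbol.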

Additional observations from a re-analysis of the deposited data

How the results depend on the processing

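All 105 member results (35 genes in 3 comparisons) kept their direction and their side of the threshold with a pseudocount of 0.1, without a filter, with RLE scaling and with the replicate block. Deviations of same-numbered libraries correlated only weakly (between -0.08 and 0.09), but 7 of 9 libraries correlated best with their own number. Whether the numbers pair the libraries is therefore not settled. A filter at an FPKM of 5 left 102 of the member results, all kept. Upper-quartile scaling kept 104, and a fit of only the 6 libraries compared kept 104. Without scaling the median of all tested genes moves to 0.05 in FLM_M against BMM, -0.34 in FLM_G against BMM and -0.39 in FLM_G against FLM_M, and the calls split into 3323 higher and 2240 lower, 2081 and 6775, and 2218 and 7075 in the same order (2716 and 2613, 4044 and 4081, and 4246 and 4195 with scaling); other replication genes called higher were then 4 in FLM_G against BMM and 2 in FLM_G against FLM_M. Without scaling signs turned for Lig1 (0.05, FLM_M against BMM), Rfc3 (-0.25), Orc3 (-0.20) and Samhd1 (-0.12, FLM_G against BMM), and Pold3 (-0.33), Rnaseh2b (-0.05) and Rb1 (-0.12, FLM_G against FLM_M). Members called with each library left out numbered 17 to 20 higher and 3 to 4 lower in FLM_M against BMM, 30 to 31 lower in FLM_G against BMM and 33 to 34 lower in FLM_G against FLM_M, with all genes called at 4192 to 5509, 7239 to 8063 and 7606 to 8242; other replication genes called higher in FLM_M against BMM numbered 19 (without BMM replicate 2) or 20 (without BMM replicate 1) to 32. Without scaling Mcm5, Orc1, Pola1 and Uhrf1 passed as higher in FLM_M against BMM; so did Orc1 without FLM_G replicate 1 and Pola1 without FLM_M replicate 2. Leaving out a library turned Cdc6 (-0.04) and Lig1 (0.01) in FLM_M against BMM.

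On the count table edgeR (30 members tested) called 1300 genes in FLM_M against BMM, 2458 in FLM_G against BMM and 2855 in FLM_G against FLM_M, and DESeq2 (35 members tested) 838, 2195 and 2628. In the same order edgeR called 8, 1 and 1 members higher and 0, 5 and 20 lower, and DESeq2 0, 1 and 1 higher and 0, 1 and 14 lower. Of the other replication genes edgeR called 7 and 2 higher (FLM_M against BMM and FLM_G against BMM) and 0, 10 and 21 lower, and DESeq2 0, 1 and 3 higher and 1, 7 and 14 lower. The genes tested on the count table and the directions of all calls were not tallied. The calls in either list therefore have no share of all genes beside them. The counts hold few reads per member and may be of the opposite strand, so these calls may not describe the members' own transcripts; the cause of the differences was not tested. Depth limits the FPKM most for members with few reads. The lowest mean FPKM were those of Pola1 (in FLM_G) and Orc1 (in FLM_M and BMM). FPKM is per length, so a low FPKM need not mean few reads.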

Other observations

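The count table gave high values for a few members. Gins2 had 791 to 1350 counts per library, Rfc5 581 to 1942 and Ccne2 162 to 275, which is 200%, 270% and 54% of the reads their FPKM imply, against a median of 2% over the members. A gene lies opposite each of them (Gm20388 and Gse1 opposite Gins2, Wsb2 opposite Rfc5, Ints8 opposite Ccne2), and the counts of these members may be reads of those partners, which was not tested. An opposite gene was not particular to them. Orc1 (35%) and Tk1 (19%) also have one, as do members of low share such as Rfc4 (2.9%), Cdc45 (0.83%) and Orc6 (1.4%). Rfc5 was the member that the count table called higher in FLM_G against BMM, by 1.93 on the log2 scale with edgeR, while its FPKM fell there by 0.33.

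Fen1 was not alone in having libraries of a group at distinct levels. Cdk2, the kinase of the E cyclins, had 9.07, 22.6 and 8.16 scaled FPKM in FLM_G, 29.2, 28.9 and 28.2 in FLM_M and 27.4, 28.4 and 28.5 in BMM, so FLM_G replicate 2 stood near the other groups and the other FLM_G libraries at a lower level. The cause was not tested. Both genes were singled out after their values were seen.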
